A study of Mus musculus with 30 samples.

Results

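The transcripts of 8 chemokine receptor genes (Ccr1, Ccr2, Ccr7, Ccrl2, Cx3cr1, Cxcr3, Cxcr4 and Cxcr6) were followed in monocytes and macrophages of the blood and brain of glioma-bearing mice. The genes were listed by name and not picked by a threshold on these data. The list was chosen with earlier results of these data known, so its shares set beside those of all genes are descriptions. The listed genes are 8 of the 45317 gene symbols in the count tables, and all 8 were among the 11566 genes with enough counts to be tested. RNA-seq had been performed on 8 sorted populations from 4 mice, numbered 22, 23, 24 and 26, to compare circulating cells with cells that had entered the tumor. All mice were of the strain C57BL6.CCR2RFP/WT, 12 to 18 weeks old, in which 1 allele of Ccr2 carries a red fluorescent reporter (RFP), and all carried in the brain the mouse glioma line GL261 with a membrane-bound GFP. Host cells that took up glioma membrane became GFPpos, and those that had not were GFPneg.

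Blood gave Ly6CHigh and Ly6CLow monocytes, sorted as CD45 and CD115 high and CD11c low cells, from mice 22, 23 and 24 (n = 3 each). The brain gave Ly6CHigh monocytes, GFPneg and GFPpos, from mice 22, 24 and 26 (n = 3 each), and F4/80-positive macrophages divided by RFP into CCR2High and CCR2Low, again GFPneg and GFPpos, from all 4 mice (n = 4 each). Brain cells were gated as CD11b and CD45 high, which was meant to leave out microglia. No tumor-free animal is among these samples, so blood and brain differ in place, in cell state and in preparation, which cannot be told apart: brains were digested with enzymes, while blood had its red cells lysed. The labels give brain as the tissue of the blood samples too, and the sample titles were followed here.

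The depth, as counts assigned to genes, lay between 1553616 and 5689644 (median 2140229.5 over the replicates). A library of Ly6CLow monocytes of mouse 23 held fewer than 6000 genes with 5 reads and was replaced by the other library of that sample. The library used held 6475 such genes, and ERCC spike-ins made up 13.3% of its spike-in and gene counts, against 0.284% to 5.16% in the other replicates; its values stand apart for some receptors and are named where they do. The sum over 5 markers of classical monocytes (Ly6c2, Plac8, Chil3, Vcan, F13a1) was 7790 to 13830 normalized read counts (CPM, scaled to a common library total) in Ly6CHigh blood, 1418 to 4118 in Ly6CLow blood, 2873 to 8236 in glioma monocytes and 292.3 to 981.1 in the macrophages, and the sum over 6 nonclassical markers (Spn, Treml4, Nr4a1, Ace, Cd300e, Itgal) was 3433 to 6188 in Ly6CLow and 1321 to 2732 in Ly6CHigh blood. Ly6c2 was among the classical markers and monocytes were sorted by Ly6C, so part of the differences in the classical sum was set by the sort. The sum over 7 macrophage markers was 1830 to 5202 CPM in blood and 10950 to 32110 in the brain. Markers of cells outside the gates were present too. The 7 microglial markers summed to 145 to 285.1 CPM in blood, where Sall1 was at 0, and to 1563 to 8942 in the brain, and the 11 markers of T and NK cells, which bear on several of the receptors, are given beside them. In such bulk samples, fewer cells of a type and less RNA per cell cannot be told apart.

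Chemokine receptors are seven-pass membrane proteins that couple to inhibitory G proteins and steer leukocytes along gradients of small secreted proteins, the chemokines. CCR2 and its ligand CCL2 bring classical monocytes out of the bone marrow and into inflamed tissue. CX3CR1, whose ligand CX3CL1 is tethered to membranes, marks patrolling monocytes and microglia. CCR1 binds CCL3, CCL5 and related inflammatory chemokines, CCR7 leads dendritic cells and lymphocytes towards CCL19 and CCL21, and CXCR4 holds cells where CXCL12 is made. CXCR3 and CXCR6 are receptors of activated T and NK cells for CXCL9, CXCL10 and CXCL11, and for CXCL16. CCRL2 is an atypical member that binds chemerin without signalling through G proteins and is induced in activated macrophages.

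Of the 8 genes, 5 lie on chromosome 9 of GRCm38 (GENCODE vM21). Ccr1 (chr9:123962124-123968692, minus strand) and Ccr2 (chr9:124101950-124113557, plus strand) lie in the same receptor cluster as Cxcr6 (chr9:123806475-123811760, plus strand), which sits within Fyco1 on the other strand without sharing exon bases. Ccrl2 (chr9:111054486-111057519, minus strand) and Cx3cr1 (chr9:119901616-120069879, minus strand) lie apart from that cluster on chromosome 9. For Cx3cr1, 78 exon bases (1.73% of 4505) overlap the antisense gene Gm33858, and reads there cannot be assigned without strand. Ccr7 (chr11:99144196-99155077, minus strand), Cxcr3 (chrX:101731535-101734269, minus strand) and Cxcr4 (chr1:128588199-128592293, minus strand) are the remaining members.

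Ccrl2 and Ccr1 were higher in all 6 brain populations than in Ly6CHigh blood, and in all 3 GFPneg brain populations than in Ly6CLow blood, and Ccrl2 went from the least abundant of the 8 transcripts per length in Ly6CHigh blood to the most abundant in the brain. Ccr2, the most abundant receptor transcript of Ly6CHigh blood monocytes, was called lower in 5 of the 6 brain populations, with its lowest means in CCR2Low macrophages. Ccr7 and Cxcr6 were higher in all 6 brain populations than in Ly6CHigh blood, but their levels in Ly6CLow blood were already high. Over all 28 replicates both moved with markers of T and NK cells. Within the brain Cxcr6 still did (Pearson's r = 0.801), while Ccr7 had an r of 0.384 with these and 0.751 with dendritic cell markers. Over the 28 replicates Ccrl2 ran from 9.20 to 2499 CPM, Ccr1 from 37.0 to 1178 and Ccr2 from 31.9 to 2384.

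**Figure D1:**
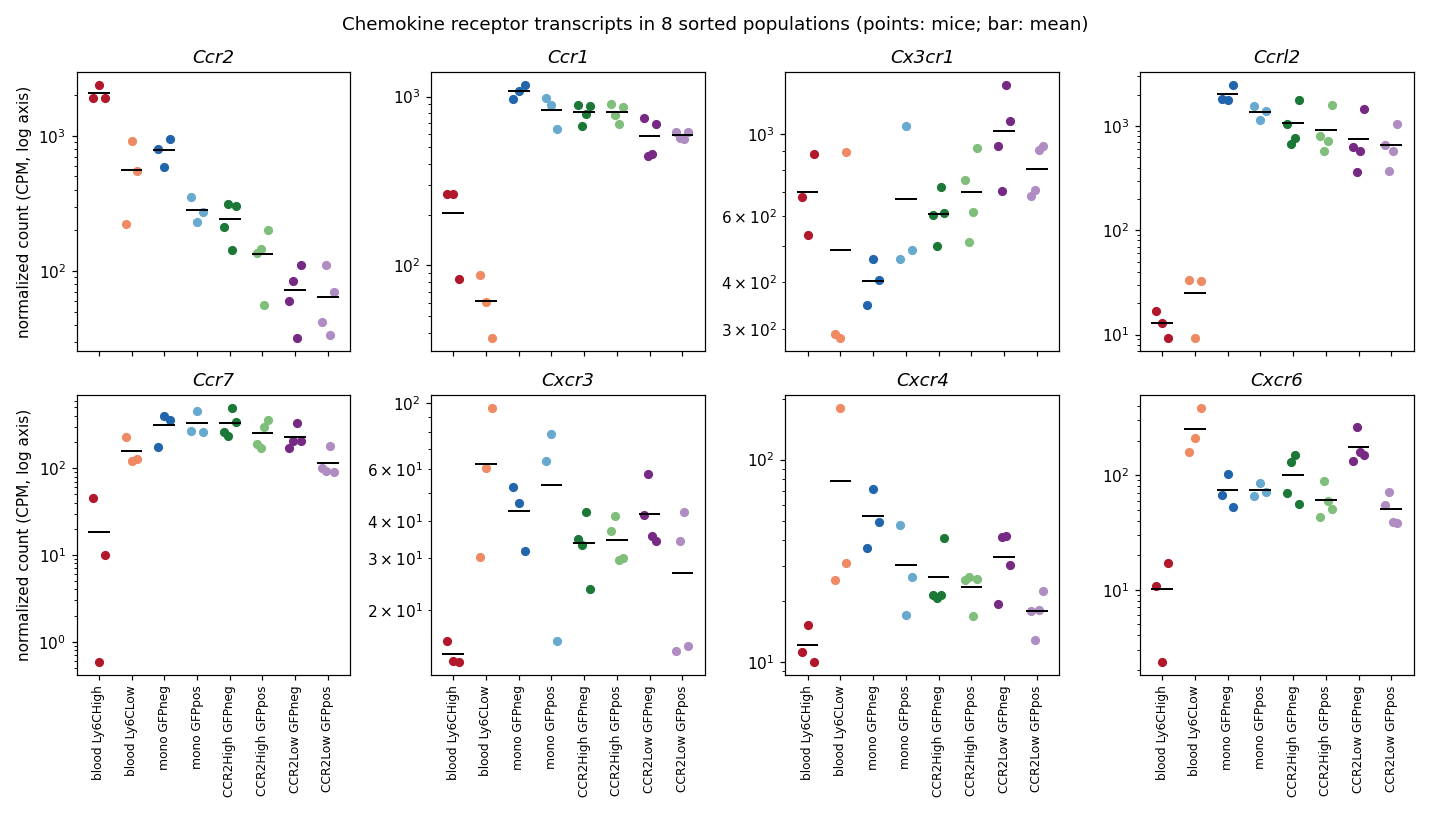
Normalized read counts (CPM, log axis) of the 8 receptors in the 8 sorted populations, one panel per gene. Each point is a mouse and each bar the mean of 3 or 4 mice. The blood points of Ccrl2 and Ccr1 lie below all brain points, the Ly6CHigh blood points of Ccr2 lie above all others, and the Cx3cr1 points of neighbouring populations overlap.

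Levels of different genes can be compared only per length, as CPM per kilobase of exon. On this scale Ccr2 made up 53.8% of the summed level of the 8 receptors in Ly6CHigh blood (304.7 ± 41.5 CPM per kilobase, SD, n = 3), followed by Cx3cr1 with 27.3% and Ccr1 with 12.8%, and Ccrl2 was last with 0.882%. In Ly6CLow blood no receptor held such a share: Cxcr6 was first with 25.4% (130.1 ± 61.4 CPM per kilobase, n = 3), and Cx3cr1, Ccr2 and Ccr7 followed at means of 109, 83.1 and 80.2. In all 6 brain populations Ccrl2 was first, at means of 782 in GFPneg and 525 in GFPpos glioma monocytes, 410 and 356 in GFPneg and GFPpos CCR2High macrophages, and 292 and 254 in GFPneg and GFPpos CCR2Low macrophages. Its share of the summed level was 29.7% to 48.4%. Ccr1 was second in 5 brain populations, Cx3cr1 was second in GFPneg CCR2Low macrophages with 226 CPM per kilobase, and Ccr2 was last in both CCR2Low populations with 10.7 and 9.53.

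**Figure D2:**
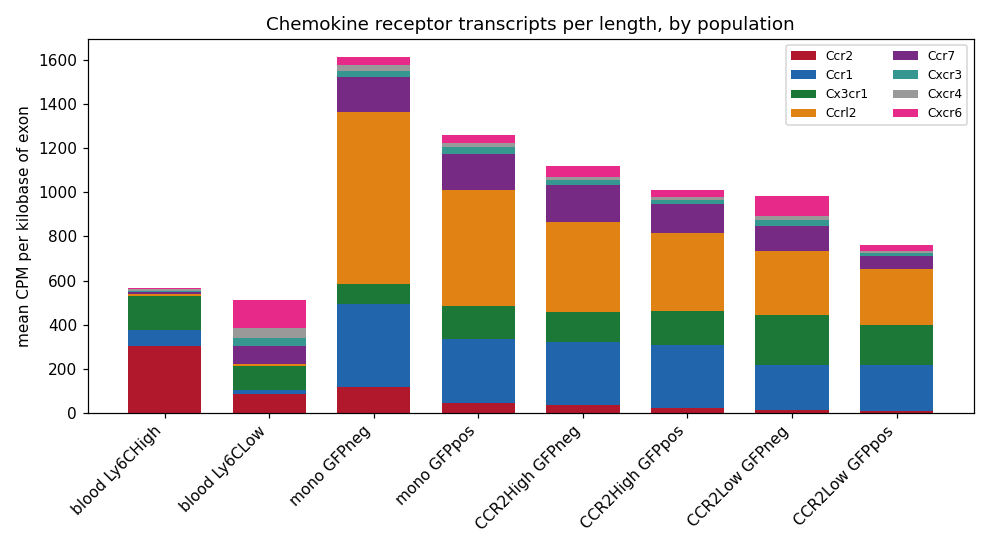
Mean level of each receptor per length (CPM per kilobase of exon, linear axis from 0), stacked by population, each bar the mean of 3 or 4 mice. The Ccr2 part fills 53.8% of the Ly6CHigh blood bar, and the Ccrl2 part, 0.882% there, fills 29.7% to 48.4% of the brain bars.

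The question of the blood comparison was how classical and patrolling monocytes of the same tumor-bearing mice differ. Of the 8 receptors, 6 differed between them: Ccr1 and Ccr2 were higher in Ly6CHigh monocytes, and Ccr7, Cxcr3, Cxcr4 and Cxcr6 were higher in Ly6CLow monocytes (quasi-likelihood test of edgeR, with p-values adjusted over all genes by the Benjamini-Hochberg method and called under 0.05 here and below). Of all genes, 5.61% were called in this comparison. The median log2 fold change of the receptors, Ly6CHigh minus Ly6CLow, was -1.56, against 0.02 over all genes.

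Ccr2, the receptor for CCL2, was counted at 1890, 2384 and 1906 CPM in Ly6CHigh monocytes of mice 22, 23 and 24, and at 221, 916.5 and 547 in Ly6CLow monocytes of the same mice. All 3 Ly6CHigh values lay above the Ly6CLow values, among which mouse 23 was highest. The log2 difference was 1.87 ± 0.49 (SE), a 3.67-fold higher level (adjusted p = 0.023), and the call was lost without Ly6CHigh mouse 23 or 24 or Ly6CLow mouse 22. Since 1 allele carries the reporter, how reads of that allele were counted bears on these values and was not tested. Ccr1, the receptor for CCL3 and CCL5, was at 266, 265 and 83.6 CPM in Ly6CHigh and 88.2, 60.5 and 37.0 in Ly6CLow monocytes. Here the groups overlapped by mouse 24, although Ly6CHigh was higher within each mouse, and the fitted difference was 1.72 ± 0.33 (3.31-fold, adjusted p = 0.0022).

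Cxcr6 had the largest difference of the 8 receptors between the blood subsets, at 10.7, 2.34 and 17.1 CPM in Ly6CHigh and 158, 211 and 385 in Ly6CLow monocytes. The groups were far apart, with a log2 difference of -4.58 ± 0.54, or 23.9-fold lower in Ly6CHigh (adjusted p = 1.3e-05). Ccr7 was at 44.9, 0.586 and 10.03 CPM in Ly6CHigh and 228, 122 and 126 in Ly6CLow monocytes (log2 difference -3.12 ± 0.65, 8.69-fold lower in Ly6CHigh, adjusted p = 0.0045). Cxcr3 was 4.40-fold lower in Ly6CHigh (log2 difference -2.14 ± 0.52, adjusted p = 0.014), a call lost without Ly6CHigh mouse 23 or 24. These 3 receptors are known from lymphocytes, and the 11 T and NK markers (Cd3e, Cd3d, Cd3g, Cd2, Lck, Cd8a, Nkg7, Klrb1c, Ncr1, Gzma, Il2rb) summed to 49.2 to 281 CPM in Ly6CHigh, with Ncr1 at 0, and to 1426 to 2016 in Ly6CLow monocytes, with 10 of the 11 called lower in Ly6CHigh. Their part in the difference was not tested.

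Cxcr4, the receptor for CXCL12, was at 11.2, 15.2 and 10.03 CPM in Ly6CHigh and 25.5, 180 and 30.8 in Ly6CLow monocytes. The groups did not overlap, but mouse 23 of the Ly6CLow group was far above the other two, and this is the sample with the replaced library. The log2 difference was -2.70 ± 0.59 (adjusted p = 0.0066), and -1.19 (adjusted p = 0.14) without that replicate; the call was also lost without Ly6CHigh mouse 24, and scaling to the spike-in RNAs gave 0.12. The 2 receptors that were not called had intervals that left room for a difference: -2.06 to 0.10 for the log2 difference of Ccrl2 (estimate -0.98, adjusted p = 0.28) and -0.23 to 1.26 for Cx3cr1 (estimate 0.51, adjusted p = 0.43). A fit to the 6 blood replicates alone, without the spread shared with the brain, called 0 of the 8 receptors, with adjusted p of 0.16 to 0.57 for the 6 named above, and scaling to the spike-ins called 0 as well.

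To ask what differs once monocytes are in the tumor, each brain population was compared with Ly6CHigh blood monocytes. These 6 comparisons share the same 3 blood libraries, so their values are given side by side and are not independent of each other. Of 8 receptors, 6 were called in GFPneg and 6 in GFPpos glioma monocytes, 5 in GFPneg and 5 in GFPpos CCR2High macrophages, and 6 in GFPneg and 5 in GFPpos CCR2Low macrophages. The shares of all genes called were 13.8% and 23.1%, 17.8% and 19.5%, and 20.2% and 22.1%, in the same order. Together these are 33 calls of 48, with 28 higher and 5 lower in the brain, and the 5 lower calls were all Ccr2. The median log2 fold change of the receptors was 1.23 to 2.26, against 0.12 to 0.22 over all genes.

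Ccrl2 had the largest rise. Its values in the blood were 16.85, 12.9 and 9.20 CPM in Ly6CHigh and 33.5, 9.25 and 32.6 in Ly6CLow monocytes. In GFPneg glioma monocytes it was at 1806, 1790 and 2499 CPM, and in GFPpos glioma monocytes at 1562, 1132 and 1400. The lowest glioma monocyte value lay far above the highest blood value. In GFPneg CCR2High macrophages the values were 1053, 673, 771 and 1759 CPM for mice 22, 23, 24 and 26, and in GFPpos CCR2High macrophages 804, 570.2, 725 and 1604. In GFPneg CCR2Low macrophages they were 629, 361, 578 and 1464, and in GFPpos CCR2Low macrophages 656, 370.2, 576 and 1038. Mouse 26 was the highest in each of the 4 macrophage populations and mouse 23, which gave no glioma monocytes, the lowest. The log2 rise over Ly6CHigh blood was largest in GFPneg glioma monocytes, 7.31 ± 0.64 (SE), a 159-fold difference (adjusted p = 8.3e-09). It was 6.74 ± 0.62 (107-fold) in GFPpos glioma monocytes, 6.38 ± 0.61 (83.3-fold) and 6.18 ± 0.60 (72.5-fold) in GFPneg and GFPpos CCR2High macrophages, and 5.89 ± 0.59 (59.3-fold) and 5.69 ± 0.59 (51.6-fold, adjusted p = 7.4e-08) in GFPneg and GFPpos CCR2Low macrophages.

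Ccr1 was at 969, 1077 and 1178 CPM in GFPneg and 975, 890.1 and 640.4 in GFPpos glioma monocytes. In CCR2High macrophages it was at 897.5, 668, 791 and 882 (GFPneg) and 901, 778, 684 and 868 (GFPpos). In CCR2Low macrophages it was at 745, 446, 458 and 686 (GFPneg) and 621, 566, 565 and 621 (GFPpos). All 22 brain values (446 to 1178, median 761.9) lay above all 6 blood values (37.0 to 266, median 85.9), and both CCR2Low populations lay below the other brain means. The log2 rise over Ly6CHigh blood was 2.396 ± 0.334 (5.26-fold, adjusted p = 1.1e-05) in GFPneg glioma monocytes and 1.52 ± 0.31 (2.86-fold, adjusted p = 0.00078) in GFPneg CCR2Low macrophages, the smallest of the 6.

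Ccrl2 and Ccr1 are the members that were higher in all brain populations tested against either blood subset, and the sequences upstream of their start sites are shown for that reason. They are from RefSeq (GRCm38.p6), in which 7 of the 8 receptors had an entry, and are written 5′ to 3′ on the strand of the gene. The Ccrl2 window is chr9:111057520-111057768 (minus strand, 249 bases, the first of 3 listed start sites) and the Ccr1 window is chr9:123968693-123968942 (minus strand, 250 bases). Capitals mark matches, none overlapping, to an NF-kB-like motif (GGGA, any 4 bases, CC) or to the PU.1 core GAGGAA, with both strands searched. In Ccrl2 both matches are to the NF-kB-like motif read on the other strand, 68 and 56 bases before the start. In Ccr1 GAGGAA matched 129 bases and the NF-kB-like motif 74 bases before the start, on the strand shown.
Ccrl2: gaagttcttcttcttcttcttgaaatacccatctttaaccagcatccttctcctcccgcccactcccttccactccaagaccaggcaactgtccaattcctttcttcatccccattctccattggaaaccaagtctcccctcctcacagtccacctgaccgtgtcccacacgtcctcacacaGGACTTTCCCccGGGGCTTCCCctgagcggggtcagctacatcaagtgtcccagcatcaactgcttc
Ccr1: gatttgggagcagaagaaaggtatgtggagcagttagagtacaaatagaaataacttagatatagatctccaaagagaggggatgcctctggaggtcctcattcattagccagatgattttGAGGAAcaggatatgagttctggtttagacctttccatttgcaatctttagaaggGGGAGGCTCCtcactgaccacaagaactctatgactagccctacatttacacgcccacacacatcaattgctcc
Of 32536 windows of 250 bases before start sites, 17.7% hold the NF-kB-like motif and 23.4% hold GAGGAA, so either match is common, and a match is a description of the letters only. The AP-1 motif TGANTCA (6.73% of windows) and the C/EBP-like motif TTGCNNAA (9.57%) had no match in either window. The windows of the other 2 listed start sites of Ccrl2 held no match to any of the 4 motifs.

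Transcripts known to respond to tissue dissociation were also higher in the brain. The sum over 11 such genes (Fos, Fosb, Jun, Junb, Egr1, Atf3, Dusp1, Hspa1a, Hspa1b, Zfp36, Ier2) was 1343 to 2337 CPM in blood and 5321 to 22140 in the brain, and 6 to 9 of the 11 were called higher in each brain population than in Ly6CHigh blood. Pearson's r between log2 levels and this sum was 0.938 for Ccrl2 and 0.908 for Ccr1 over all 28 replicates, and 0.665 and 0.656 over the 22 brain replicates. Over the brain replicates other values were as high: Ccr7 had 0.663 with the same sum (0.612 over all 28). Over the same brain replicates Ccrl2 and Ccr1 had an r of 0.857 and 0.702 with the nonclassical and of 0.739 and 0.666 with the classical monocyte markers. Over all 28 replicates these values were -0.658 and -0.750 with the nonclassical and -0.365 and -0.235 with the classical markers. Replicates share mice and preparation, and the relation was chosen after values had been seen. The part of dissociation in the rise of Ccrl2 and Ccr1 was not tested. When libraries were scaled to the ERCC spike-in RNAs instead, Ccrl2 was still called in all 6 comparisons with Ly6CHigh blood, while Ccr1 kept its direction and was called in 0 of 6. Of all genes, 398 to 786 were called in these comparisons under that scaling, against 1596 to 2673 without it.

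**Figure D3:**
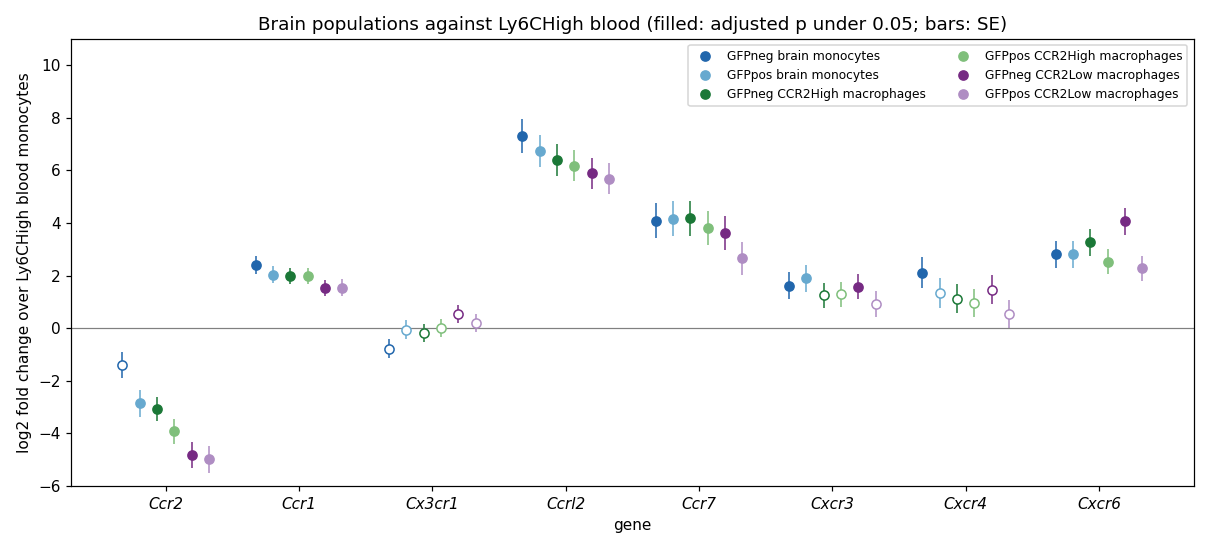
Log2 fold change of the 8 receptors in the 6 brain populations against Ly6CHigh blood monocytes, with bars for the standard error; filled symbols mark an adjusted p under 0.05. Ccrl2, Ccr7, Cxcr6 and Ccr1 lie above 0 and are filled in all 6 populations, Ccr2 lies below 0 in all 6 and is open in GFPneg glioma monocytes, and all Cx3cr1 symbols are open.

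Ccr2 had lower means in all 6 brain populations than in Ly6CHigh blood, and the means went down from glioma monocytes to CCR2High and then CCR2Low macrophages. It was at 802, 588 and 953 CPM in GFPneg and 350.5, 229 and 273 in GFPpos glioma monocytes. In CCR2High macrophages it was at 212.5, 313, 143.5 and 304 (GFPneg) and 136, 145, 56.6 and 201 (GFPpos). In CCR2Low macrophages it was at 60.0, 85.2, 31.9 and 112 (GFPneg) and 42.2, 111, 33.9 and 70.6 (GFPpos). Every brain replicate lay below all 3 Ly6CHigh blood replicates. In the order of means, Ly6CHigh blood was separated from GFPneg glioma monocytes, and all later neighbours overlapped. Against Ly6CHigh blood the log2 difference was -1.40 ± 0.49 (adjusted p = 0.055) in GFPneg glioma monocytes, which misses the threshold, and -2.86 ± 0.51 (7.24-fold lower, adjusted p = 0.0002) in GFPpos glioma monocytes. With the mouse as a block the former value had an adjusted p of 0.0064, and under spike-in scaling 5 of the 6 comparisons were called. In the macrophages Ccr2 was 8.46-fold lower in GFPneg CCR2High, 15.2-fold in GFPpos CCR2High, 28.5-fold in GFPneg CCR2Low (log2 difference -4.83 ± 0.50, adjusted p = 8e-08) and 31.9-fold in GFPpos CCR2Low cells (log2 difference -4.99 ± 0.50, adjusted p = 4.9e-08). The macrophages were gated by a reporter of this gene, so part of that order was set by the sort.

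Ccr7 was higher in all 6 brain populations than in Ly6CHigh blood. In glioma monocytes it was at 177, 396 and 359 CPM (GFPneg) and 265, 458 and 263 (GFPpos), against 0.586 to 44.9 in the blood. In CCR2High macrophages it was at 260.5, 234, 492.7 and 340.1 (GFPneg) and 189, 170, 295 and 362 (GFPpos), and in CCR2Low macrophages at 170, 203, 329 and 204 (GFPneg) and 99.3, 92.6, 178 and 89.4 (GFPpos). The lowest values were those of GFPpos CCR2Low macrophages, and still above all Ly6CHigh blood values. The log2 rise ran from 2.66 ± 0.62 (6.31-fold, adjusted p = 0.0026) in that population to 4.18 ± 0.66 (18.2-fold, adjusted p = 4.7e-05) in GFPneg CCR2High macrophages. Under spike-in scaling it was called in 2 of the 6, GFPneg glioma monocytes and GFPneg CCR2High macrophages.

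Cxcr6 was also higher in all 6, at 67.2, 102 and 52.3 CPM in GFPneg and 65.2, 85.1 and 70.6 in GFPpos glioma monocytes. In CCR2High macrophages it was at 69.4, 129, 148 and 55.8 (GFPneg) and 43.4, 88.3, 59.6 and 50.5 (GFPpos), and in CCR2Low macrophages at 133, 261, 160 and 150 (GFPneg) and 55.3, 71.2, 38.8 and 38.2 (GFPpos). The GFPneg CCR2Low macrophages held the highest brain values, and every brain replicate lay above the 3 Ly6CHigh blood replicates (2.34 to 17.1). The log2 rise was 2.28 ± 0.48 (4.84-fold, adjusted p = 0.001) in GFPpos CCR2Low and 4.06 ± 0.52 (16.7-fold, adjusted p = 2.1e-06) in GFPneg CCR2Low macrophages, with the other 4 between them. Under spike-in scaling 0 of the 6 were called.

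Cxcr3, the CXCL9 and CXCL10 receptor, was low throughout, from 13.4 CPM in Ly6CHigh blood to 96.5 in Ly6CLow blood, and 14.5 to 79.0 in the brain. It was called higher than in Ly6CHigh blood in GFPneg glioma monocytes (log2 rise 1.61 ± 0.51, 3.05-fold, adjusted p = 0.035), GFPpos glioma monocytes (1.89 ± 0.51, 3.71-fold, adjusted p = 0.0089) and GFPneg CCR2Low macrophages (1.58 ± 0.49, 2.99-fold, adjusted p = 0.022). The first call was lost without any 1 of Ly6CHigh blood mice 22, 23 and 24, GFPneg glioma monocytes of mice 22 and 24 and GFPneg CCR2High macrophages of mouse 23 (adjusted p up to 0.13). The second was lost without Ly6CHigh blood mouse 23 or GFPpos glioma monocytes of mouse 24, and the last without any 1 of the 3 Ly6CHigh blood mice or GFPneg CCR2Low macrophages of mouse 23. Under spike-in scaling none of the 3 was called: the values were 1.37 (adjusted p = 0.82) and 1.42 (adjusted p = 0.6) in GFPneg glioma monocytes and CCR2Low macrophages and turned to -0.65 (adjusted p = 0.62) in GFPpos glioma monocytes. With a filter of 1 count the calls in GFPneg glioma monocytes and CCR2Low macrophages were lost (adjusted p of 0.087 and 0.055). The other 3 populations had log2 values of 1.24, 1.29 and 0.92 with adjusted p of 0.078, 0.064 and 0.19 for GFPneg CCR2High, GFPpos CCR2High and GFPpos CCR2Low macrophages. The mouse block gave adjusted p of 0.021 and 0.014 for the first pair.

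Over all 28 replicates these 3 receptors moved with lymphocyte transcripts. The 11 T and NK markers summed to 480 to 2786 CPM in the brain against 49.2 to 281 in Ly6CHigh blood, and 10 or 11 of the 11 were called higher in each brain population. Over 28 replicates, Pearson's r with that sum on the log2 scale was 0.876 for Cxcr6, 0.865 for Ccr7 and 0.740 for Cxcr3, and over the 22 brain replicates 0.801, 0.384 and 0.758. Ccr7 in the brain had an r of 0.751 with the sum of 8 dendritic cell markers (Flt3, Zbtb46, Clec9a, Cd209a, Fscn1, Ccl22, Cacnb3, Kmo), against 0.172 over all 28 replicates. That sum was 45.9 to 785.5 CPM in the brain, 139 to 238.5 in Ly6CHigh and 351 to 1920 in Ly6CLow blood, and Fscn1 and Ccl22 were at 0 in both blood subsets. The part of such cells in the levels of Cxcr6, Cxcr3 and Ccr7 was not tested.

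**Figure D4:**
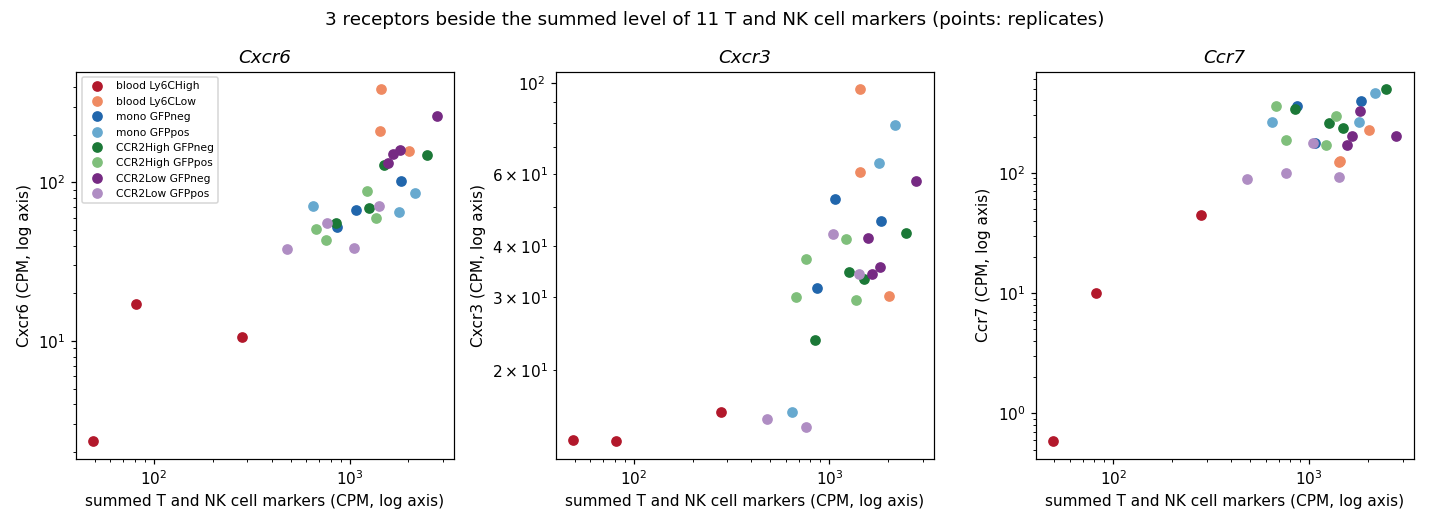
Normalized read counts (CPM) of Cxcr6, Cxcr3 and Ccr7 against the summed CPM of 11 T and NK cell markers, log axes, one point per replicate (28) with symbols for the populations. The Ly6CHigh blood points lie at the lower left, with marker sums of 49.2 to 281 CPM, and Pearson's r is 0.876 for Cxcr6, 0.740 for Cxcr3 and 0.865 for Ccr7.

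Cxcr4 was at 36.6, 71.7 and 49.0 CPM in GFPneg glioma monocytes, all above the 10.03 to 15.2 of Ly6CHigh blood, with a log2 rise of 2.11 ± 0.58 (4.33-fold, adjusted p = 0.014). That call was lost without Ly6CHigh mouse 22 or 24 or without GFPneg glioma monocytes of mouse 24 (adjusted p up to 0.076), and also under spike-in scaling. The other 5 brain populations had log2 values of 0.55 to 1.46 and adjusted p of 0.061 to 0.54.

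Cx3cr1 was the receptor with 0 calls of 6 against Ly6CHigh blood. It was at 677, 534 and 881 CPM in Ly6CHigh and 290.1, 283 and 894 in Ly6CLow blood. In glioma monocytes it was at 347, 460.4 and 405 (GFPneg) and 463, 1048 and 489 (GFPpos), and in CCR2High macrophages at 605, 500.5, 720.4 and 613 (GFPneg) and 751, 511, 618 and 914 (GFPpos). In CCR2Low macrophages it was at 926, 702, 1355 and 1083 (GFPneg) and 679, 707.5, 907 and 927 (GFPpos). No population was separated from the next in the order of means, which ran from 404 ± 56.6 (SD, n = 3) in GFPneg glioma monocytes to 1017 ± 274 (n = 4) in GFPneg CCR2Low macrophages. The log2 differences from Ly6CHigh blood ran from -0.79 in GFPneg glioma monocytes to 0.54 in GFPneg CCR2Low macrophages, with adjusted p of 0.17 and 0.3. In edgeR 1 of the 6 had an unadjusted p under 0.05, and DESeq2 called 0 of 6. With the mouse block the value of GFPneg glioma monocytes had an adjusted p of 0.015 and was called.

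Against Ly6CLow blood monocytes the GFPneg populations of the brain were compared, again with 3 shared blood libraries. Of the 8 receptors, 3 were called in glioma monocytes, 4 in CCR2High and 4 in CCR2Low macrophages, where 18.5%, 23.1% and 23.4% of all genes were called. The median log2 fold change of the receptors was 0.10, -0.29 and 0.00, against 0.24 to 0.26 over all genes. Of the 11 calls, 7 were higher in the brain, among them Ccr1 and Ccrl2 in each population. The log2 rise of Ccrl2 was 6.34 ± 0.60 (80.8-fold, adjusted p = 2.8e-08) in glioma monocytes, 5.40 (42.3-fold) in CCR2High and 4.91 ± 0.56 (30.1-fold, adjusted p = 3.7e-07) in CCR2Low macrophages. The rise of Ccr1 was 4.12 ± 0.36 (17.4-fold, adjusted p = 6.3e-09), 3.71 (13.1-fold) and 3.24 ± 0.34 (9.45-fold, adjusted p = 1e-07) in the same order. These 6 calls of Ccrl2 and Ccr1 remained with spike-in scaling and in fits to the compared populations alone. Of the dissociation genes, 7 to 9 of 11 were called higher than in Ly6CLow blood.

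Cxcr6 was lower than in Ly6CLow blood in glioma monocytes (log2 difference -1.77 ± 0.47, 3.41-fold lower, adjusted p = 0.01) and in CCR2High macrophages (-1.32 ± 0.43, adjusted p = 0.027). Neither was called under spike-in scaling, where the latter value was 0.02, or when only the compared populations were fitted. Leaving out Ly6CLow mouse 24 ended both calls, as did glioma monocytes of mouse 26 for the former (adjusted p up to 0.069) and CCR2High macrophages of mouse 22 or 26 for the latter (adjusted p up to 0.17). In CCR2Low macrophages the log2 difference of Cxcr6 was -0.51 (adjusted p = 0.42). Ccr7 had log2 values of 0.51 to 1.06 (adjusted p = 0.18 to 0.55) and Cxcr3 of -0.90 to -0.53 (adjusted p = 0.16 to 0.5). The T and NK markers, whose sums in Ly6CLow blood and in the brain overlapped, had at most 1 of 11 called in either direction in these comparisons.

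Ccr2 was 7.77-fold lower in CCR2Low macrophages than in Ly6CLow blood (log2 difference -2.96 ± 0.46, adjusted p = 3.8e-05), and under spike-in scaling the value was -1.01 and not called (adjusted p = 0.37). These macrophages were sorted for a low signal of the Ccr2 reporter, so part of this difference was set by the sort. In CCR2High macrophages the log2 difference of Ccr2 was -1.21 with an adjusted p of 0.05, just outside the threshold, and 0.004 with the mouse block, and in glioma monocytes it was 0.48 (adjusted p = 0.54). Cxcr4 was called lower in CCR2High macrophages (-1.58 ± 0.51, 2.99-fold lower, adjusted p = 0.027), a call that rested on Ly6CLow mouse 23: without it the value was -0.13 (adjusted p = 0.87), under spike-in scaling it was 1.41, and the mouse block gave an adjusted p of 0.063. It was also lost without CCR2High macrophages of mouse 22, 23 or 24. Cx3cr1 was 2.08-fold higher in CCR2Low macrophages (1.05 ± 0.35, adjusted p = 0.029), and 0.75 with an adjusted p of 0.18 without Ly6CLow mouse 23. That call was also lost without Ly6CLow mouse 22 or CCR2Low macrophages of mouse 24 or 26.

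The populations of the brain were compared with each other to ask how the receptors differ between infiltrating monocytes and the macrophages sorted beside them. Without a block, 2 of 48 tests were called, both for Ccr2. In GFPneg cells, 1 of 8 receptors was called between glioma monocytes and CCR2Low macrophages, where 1.21% of all genes were called, and 0 of 8 between glioma monocytes and CCR2High macrophages, where 0.182% were called. The latter comparison had 2 receptors with an unadjusted p under 0.05 in edgeR, and DESeq2 called 1. Between GFPneg CCR2High and CCR2Low macrophages edgeR called 0 of 8 receptors and 0% of all genes, with 2 receptors and 276 genes at an unadjusted p under 0.05, and DESeq2 called 0 receptors and 8 genes. In GFPpos cells 1 of 8 receptors was called between glioma monocytes and CCR2Low macrophages (0.164% of all genes). Between GFPpos glioma monocytes and CCR2High macrophages edgeR called 0 receptors (0.0173% of all genes), with 1 receptor at an unadjusted p under 0.05 and 0 called by DESeq2. Between GFPpos CCR2High and CCR2Low macrophages edgeR called 0 receptors and 0% of all genes, with 2 receptors and 171 genes at an unadjusted p under 0.05, and DESeq2 called 0 receptors and 0 genes.

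Ccr2 was 10.8-fold higher in GFPneg glioma monocytes than in GFPneg CCR2Low macrophages (log2 difference 3.43 ± 0.47, adjusted p = 0.00011), with 588 to 953 against 31.9 to 112 CPM. In GFPpos cells it was 4.40-fold higher (2.14 ± 0.45, adjusted p = 0.045), and this call, close to the threshold, was lost in 16 of 28 fits that left out 1 replicate (adjusted p of 0.016 to 0.26 over the 28), among them those without any 1 of the Ly6CHigh blood mice, GFPpos glioma monocytes of mouse 22 or 24, or GFPpos CCR2Low macrophages of mouse 22, 24 or 26, and kept with the mouse as a block (adjusted p = 0.00023). Under spike-in scaling neither value was called, at 3.41 (adjusted p = 0.7) in GFPneg and 0.53 (adjusted p = 0.61) in GFPpos cells. CCR2Low macrophages were sorted for a low signal of the Ccr2 reporter, so part of both differences was set by the sort. Classical monocyte markers differed along with Ccr2: 3 of the 5 were called higher in GFPneg and 2 of the 5 in GFPpos glioma monocytes than in CCR2Low macrophages, and over 22 brain replicates Ccr2 had an r of 0.851 with their sum. Ly6c2 is among these 5 and glioma monocytes were sorted by high Ly6C, so part of this was set by the sort.

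Because each mouse gave several populations, a fit with the mouse as a block was also made, and it called 6 of the 48 tests in place of 2. It called more of all genes too: 0.83% between GFPneg glioma monocytes and CCR2High macrophages, 2.46% between GFPneg glioma monocytes and CCR2Low macrophages and 0.0259% between the GFPneg macrophages, and 0.216%, 0.527% and 0.00865% in the same comparisons of GFPpos cells. The 4 added calls were 2 differences of Ccr2 and 1 each of Ccrl2 and Cx3cr1. Ccr2 was 3.21-fold higher in GFPneg glioma monocytes than in CCR2High macrophages (log2 difference 1.68 ± 0.45, adjusted p = 0.15, and 0.0029 with the block). It was 3.37-fold higher in GFPneg CCR2High than in CCR2Low macrophages (1.75 ± 0.43, adjusted p = 0.67, and 0.023 with the block), higher in each of the 4 mice and without overlap between the groups. Since these macrophages were divided by the reporter of the Ccr2 locus, that difference is a check of the gate. In GFPpos macrophages the same difference was 1.06 (adjusted p = 1, and 0.95 with the block), again higher in each of the 4 mice but with overlap, as CCR2High mouse 24 (56.6 CPM) lay below CCR2Low mice 23 and 26.

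Cx3cr1 ran the other way. It was 2.52-fold lower in GFPneg glioma monocytes than in GFPneg CCR2Low macrophages (log2 difference -1.33 ± 0.35, adjusted p = 0.062, and 0.0013 with the block), and the groups did not overlap. Of the 7 microglial markers, 2 were called lower in this comparison, with a median log2 fold change of -1.43 over the list, and their part in the difference was not tested. Ccrl2 had a log2 difference of 1.42 ± 0.44 between the same groups (adjusted p = 0.15, and 0.0019 with the block), also without overlap. The sum of dissociation genes did not overlap between these groups either, at 12420 to 22140 CPM in glioma monocytes and 5712 to 9823 in CCR2Low macrophages, with 1 of the 11 called, and their part was not tested. Ccr1 had 0.88 (adjusted p = 0.2) and Cxcr6 -1.26 (adjusted p = 0.26), and neither was called with the block.

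The ratio of Ccr2 to Cx3cr1 counts, which needs no scaling between libraries, was taken for each replicate. It was 2.79, 4.46 and 2.16 in Ly6CHigh blood, 0.763, 3.24 and 0.612 in Ly6CLow blood, and 2.31, 1.28 and 2.36 in GFPneg glioma monocytes. In GFPpos glioma monocytes it was 0.758, 0.218 and 0.558, so that the GFPpos values lay below all GFPneg values. In GFPneg macrophages it had medians of 0.423 (CCR2High) and 0.0841 (CCR2Low), and in GFPpos macrophages of 0.201 (CCR2High) and 0.0691 (CCR2Low). The highest value of any CCR2Low replicate was 0.157, and Ly6CLow mouse 23, the replaced library, lay among the Ly6CHigh values. The counts are not scaled to gene length (6760 exon bases for Ccr2 and 4505 for Cx3cr1), so equal counts are not equal levels per length. The macrophages were divided by the reporter of the Ccr2 locus and the monocytes were sorted by Ly6C. Part of the order of these ratios was therefore set by the sort. These ratios describe samples and were not tested.

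**Figure D5:**
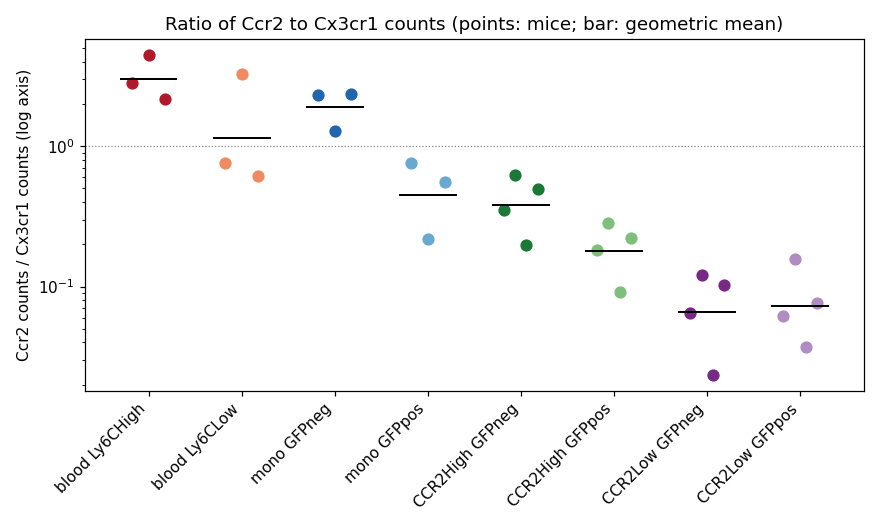
Ratio of Ccr2 to Cx3cr1 counts in each population (log axis), one point per mouse, bars for the geometric mean of 3 or 4 mice and a dotted line where both counts are equal. Ly6CHigh blood and GFPneg glioma monocytes lie above the line, GFPpos glioma monocytes and all macrophages below it, and Ly6CLow blood on both sides. The macrophages were divided by the reporter of the Ccr2 locus, so part of the order was set by the sort. The counts are not scaled to gene length.

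GFPpos cells were compared with GFPneg cells to ask whether uptake of glioma membrane goes along with a change. In glioma monocytes edgeR called 0 of 8 receptors and 0% of all genes, with 1 receptor and 739 genes at an unadjusted p under 0.05, and DESeq2 called 0 receptors and 20 genes. In CCR2High macrophages edgeR called 0 receptors and 0% of all genes, with 0 receptors and 69 genes at an unadjusted p under 0.05, and DESeq2 called 0 receptors and 1 gene. In CCR2Low macrophages edgeR again called 0 receptors and 0% of all genes, with 1 receptor and 184 genes at an unadjusted p under 0.05, and DESeq2 called 1 receptor and 5 genes. The receptor was Cxcr6.

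Cxcr6 in CCR2Low macrophages was at 133, 261, 160 and 150 CPM in GFPneg and 55.3, 71.2, 38.8 and 38.2 in GFPpos cells. The groups did not overlap, and GFPpos was lower in 4 of 4 mice. The log2 difference was -1.79 ± 0.41, or 3.46-fold lower in GFPpos (interval -2.64 to -0.94, adjusted p = 0.57 in edgeR, adjusted p = 0.025 in DESeq2, and 0.32 with the mouse block). The summed T and NK markers did not overlap between these groups either, with 1566 to 2786 CPM in GFPneg and 480 to 1413 in GFPpos cells, and their part in the difference was not tested. Ccr2 in glioma monocytes was 2.75-fold lower in GFPpos than in GFPneg cells (log2 difference -1.46 ± 0.49, adjusted p = 0.64 in edgeR, 0.17 in DESeq2 and 0.21 with the block), lower in 3 of 3 mice and without overlap. The sum of classical monocyte markers was 6765 to 8236 CPM in GFPneg and 2873 to 5303 in GFPpos glioma monocytes, which do not overlap either. The intervals of the other log2 differences between GFPpos and GFPneg cells left room for changes, such as -2.03 to 0.08 for Ccr7 and -1.90 to 0.09 for Cxcr4 in CCR2Low macrophages.

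Whether the differences between populations depended on GFP was tested by 24 interaction terms, of which 0 were called (smallest adjusted p = 0.9999 in edgeR). Those with an unadjusted p under 0.05 were 2: Cxcr6 in glioma monocytes against CCR2Low macrophages (log2 difference of 1.78) and Cx3cr1 in the same pair (1.06).

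Transcripts of the ligands of these receptors were abundant in the same sorted brain populations. Of 18 listed ligands 15 were tested, and 12 or 13 were higher in each brain population than in Ly6CHigh blood, while 0 to 2 were lower. Of all genes 13.8% to 23.1% were called in these comparisons. Between the blood subsets, where 5.61% of all genes were called, 1 ligand was higher in Ly6CHigh monocytes (Ccl2) and 2 were lower (Ccl3 and Ccl5). Ccl4, an inflammatory chemokine gene that is induced in activated macrophages, had means of 1.27 CPM in Ly6CHigh and 2.65 in Ly6CLow blood and of 550.1 to 1096 over the brain populations. Ccl3 and Ccl5, ligands of CCR1, had means of 196 to 334 and 326 to 1110 CPM in the brain, against 1.58 and 27.2 in Ly6CHigh blood. Cxcl16, the ligand of CXCR6, had means of 18.7 CPM in Ly6CHigh blood and 814 to 1301 in the brain (log2 rise 5.45 to 6.13). The CXCR3 ligands Cxcl9 and Cxcl10 had means of 4.25 and 29.4 CPM in Ly6CHigh blood and of 294 to 686 and 375 to 1709 in the brain.

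Transcripts of CCR2 ligands were in the sorted brain cells too. Ccl2 had a mean of 4.12 CPM in Ly6CHigh blood, was at 0 in Ly6CLow blood, and had means of 218 to 669 in the brain populations. Ccl12 was at 0 in all 6 blood replicates, where a count of 0 allows up to 3 counts, and had means of 235 to 550 in the brain, so no fold is given. Transcripts of ligands of the receptors known for homing and retention were scarce in these sorted cells. Cx3cl1 was at 0 in the blood cells and had means of 2.57 to 9.37 CPM in the brain populations. Cxcl12 had means of 1.25 to 8.59 in the brain populations, and Ccl21a, a ligand of CCR7, was at 0 in all 28 replicates. Other cells of the brain were not sampled, so these values do not give the level of the ligands in the tissue. Ccl6 and Ccl9, ligands of CCR1, were called lower than in Ly6CHigh blood, Ccl6 in 5 of the 6 brain populations (means of 2583 CPM in Ly6CHigh blood and 581 to 1214 in the brain) and Ccl9 in 4 (1181 and 171.5 to 766.5).

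Of 21 other chemokine and related chemoattractant receptors, 14 were tested. Against Ly6CHigh blood 4 to 7 of them were higher in the brain and 0 or 1 lower, where 13.8% to 23.1% of all genes were called. Against Ly6CLow blood 3 to 5 were higher in the GFPneg brain populations and 0 or 1 lower, where 18.5% to 23.4% of all genes were called. In the blood, brain and GFP comparisons 0 of these receptors were called. Cmklr1, the signalling receptor for chemerin, the ligand that CCRL2 binds, rose in all 6 brain populations but stayed at means of 15.1 to 38.4 CPM. Ccr8 was at 0 in blood and had means of 18.1 to 46.2 CPM in the brain.

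Genes that pass on or stop the signal of such receptors were lower in the brain more often than higher. Of 24 tested genes of such signalling (G protein subunits, receptor kinases, arrestins and RGS proteins, with downstream lipid kinase, phospholipase, exchange factor, GTPase, tyrosine kinase and integrin genes), 1 to 3 were higher and 3 to 10 lower in the brain populations than in Ly6CHigh blood. Of all genes 13.8% to 23.1% were called in these comparisons, with 1286 to 1971 genes higher and 310 to 782 lower. Grk5, a kinase that switches off activated receptors, had means of 50.3 CPM in Ly6CHigh blood and 0.689 to 3.89 in the brain, and Rgs18, which shortens G protein signals, 109 and 2.95 to 13.6. Arrb1, which uncouples receptors from G proteins, was lower in all 6 populations (means of 14.7 to 24.9 against 70.6 CPM). Rgs1, also a brake on chemokine receptor signals, was the opposite, with means of 0.418 CPM in Ly6CHigh blood and 337 to 506 in the brain. Rgs10 was called higher in 4 of the 6 populations (62.4 CPM against 103 to 204) and Arrb2, another arrestin, in 3 (131 against 135 to 320.5).

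Within the brain some of the receptors moved together. Over 22 brain replicates, Pearson's r of log2 CPM was 0.786 between Ccr1 and Ccr2, 0.778 between Ccr1 and Ccrl2 and 0.738 between Ccr2 and Ccrl2. Ccr2 and Cx3cr1 moved in opposite directions (r = -0.742), and Cxcr3 and Cxcr6 had an r of 0.403. The replicates share mice and populations, so these values are descriptions. The macrophages were divided by the reporter of the Ccr2 locus, so part of the spread of Ccr2 was set by the sort.

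The genes whose log2 CPM was most like that of each receptor were sought among 8133 genes over all 28 replicates. Ccr1 was most like Gp49a, Fcgr2b and the complement factor gene Cfb (r = 0.968, 0.952 and 0.951). Ccrl2 was most like Sdc4, which encodes a syndecan, the cystine transporter gene Slc7a11 and the neutrophil chemokine gene Cxcl2 (0.979, 0.979 and 0.976). Ccr2 was most like Gm9733, Emb and Anxa2 (0.931, 0.922 and 0.913). The neighbours of Cxcr6 were Gimap7, Gimap4 and Cd3d (0.900, 0.892 and 0.890), those of Cxcr3 were Ctsw, Cd3e and Tmed5 (0.789, 0.787 and 0.786), and those of Ccr7 were Ccnd2, Tes and Gzma (0.940, 0.915 and 0.906). Cd3d and Cd3e encode parts of the T cell receptor complex and Gzma a granzyme of cytotoxic lymphocytes. Those of Cx3cr1 were Cyb5d2, Daglb and Scfd2 (0.771, 0.738 and 0.707) and those of Cxcr4 were Ppp2ca, Srrm1 and Rpl15 (0.795, 0.781 and 0.778). The lists depend on the measure of likeness: by Spearman's rho the neighbours of Ccr7 ranked 53, 29 and 13, and none of the 3 named for Ccr1 or for Ccrl2 was among the 3 with the highest rho.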

How the data were processed

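For the deposited counts the authors used STAR on the mm10 genome, Picard 1.8.4 to take out duplicate reads, and htseq-count with strict intersection and a Gencode annotation of GRCm38. The strand setting is not given in the sources used here, and the library kit does not mark strand. The deposited values are whole-number counts per gene and library, not normalized, for 45317 gene symbols and 92 ERCC spike-ins. Reads on no annotated gene (6.29% to 17.4% per library) stayed out of totals and tests.

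Of 30 libraries, 1 failed the rule of at least 6000 genes with 5 reads, and both libraries of GFPpos glioma monocytes of mouse 22 were summed, which left 28 replicates. Differences were tested with edgeR 4.0.16 under R 4.3.3, by its robust quasi-likelihood method after filterByExpr and TMM, in 1 fit over all 8 populations with full gene totals as library sizes, a treatment chosen after call counts over all genes had been seen. Calls are at a Benjamini-Hochberg adjusted p under 0.05 over all 11566 tested genes. CPM are counts scaled to a common TMM-adjusted total, with a prior count of 2 for log2 CPM. The alternatives were DESeq2 1.42.0, other scalings and filters, the mouse as a block, fits to the compared populations alone, the first library alone, and each replicate left out. The script was tested on simulated data. A count of 0 allows up to 3 counts at 95% confidence, for counting error only.

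Mouse numbers come from the sample titles, and the same mice gave several populations, so they pair the samples. Deviations from group means of replicates from the same mouse had a median correlation of 0.136 over 86 pairs (-0.0971 to 0.674), against -0.0303 over 256 pairs from different mice. The genes named are the 8 receptors, for each the 3 most similar genes by log2 CPM among those averaging at least 10 CPM, and genes of the ligand, other receptor and signalling lists that were called in at least 1 comparison. The members and lists were chosen with earlier results of these data known, and a few single genes of these lists are not reported here. Further marker lists were summed: neutrophils 9.37 to 2811 CPM, B cells 37.1 to 925, and oligodendrocytes 52.4 to 620.8 over all replicates.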

Additional observations from a re-analysis of the deposited data

Results flagged for a closer look

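In 3 of 32 groups of 4 macrophage replicates, 1 value lay far from the others, and chance flags about 1 in 20 such groups. They were Ccr7 in GFPpos CCR2Low macrophages of mouse 24 (178 CPM, the others at 89.4 to 99.3), Cxcr4 in GFPneg CCR2High macrophages of mouse 26 (41.2 CPM, the highest) and Cxcr4 in GFPpos CCR2High macrophages of mouse 24 (16.9 CPM, the lowest).

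The library of Ly6CLow blood monocytes of mouse 23 that failed the quality rule was not used, and 4 receptors had more counts in it than the 3 that a count of 0 allows. It held 396 counts of Ccr2, 253 of Cx3cr1, 31 of Cxcr4 and 7 of Ccr1. Ccr7, Ccrl2, Cxcr3 and Cxcr6 were at 0 there and at 316, 24, 157 and 547 counts in the library used for the same sample. The summed libraries of GFPpos glioma monocytes of mouse 22 differed in the same manner for Cxcr6, with 0 counts in one and 320 in the other, where ERCC spike-ins took 7.75% and 1.15% of counts.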

How the results depend on the processing

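Member calls were 6 between the blood subsets, 33 against Ly6CHigh blood, 11 against Ly6CLow blood, 2 among brain populations and 0 between GFPpos and GFPneg cells. Scaling to the spike-ins gave 0, 13 (8 higher, 5 lower, against 28 and 5), 6 (6 higher, 0 lower, against 7 and 4), 0 and 0, and set the all-gene median of log2 fold changes to 1.69 in the blood comparison, to 1.70 to 1.87 against Ly6CLow blood and to -1.37 for GFPpos glioma monocytes against Ly6CHigh blood. It reversed Cxcr4 between the blood subsets (0.12), Cxcr3 in GFPpos glioma monocytes against Ly6CHigh blood (-0.65), and Cxcr4 (1.41) and Cxcr6 (0.0198) in GFPneg CCR2High macrophages against Ly6CLow blood. By the paper's methods a fixed amount of RNA entered each reaction and the spike-ins were added before reverse transcription. Scaling to the spike-ins therefore does not follow the RNA per cell. Fits to the compared populations alone, which have fewer samples, gave 0 calls in the blood and 7 (6 higher, 1 lower) against Ly6CLow blood.

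Leaving out 1 replicate gave 3 to 7 calls in the blood (3 without Ly6CHigh mouse 24), 30 to 37 against Ly6CHigh blood, 9 to 12 against Ly6CLow blood, 1 to 3 among brain populations and 0 for GFP. Among brain populations the replicate block by mouse gave 6 calls, DESeq2 with and without its prior 4, and DESeq2 size factors, a filter of 1 count, the first library alone and TMM before the filter 1 each. With the replicate block the other comparisons had 6, 37, 11 and 0 calls. DESeq2, with and without its prior, called 1 member between GFPpos and GFPneg cells. TMM before the filter and library sizes over tested genes alone were added after the data had been seen, and the latter gave 6, 34, 11, 2 and 0 calls. Of the single-member values under all alternatives, 5701 kept their side of the threshold, 78 became called, 105 lost their call and 4 reversed. Among the 5701 are 125 values of the other sign that were called in neither fit, 38 of them under spike-in scaling. The cause was not tested.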
